A study of Homo sapiens with 12 samples.

Results

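The domains described here come from 5 human zinc finger proteins and comprise KRAB domains, a DUF3669 domain and a C2HR domain. They were picked by name from the library of domain pairs, as any domain of ZN473_HUMAN, ZN597_HUMAN, ZFP28_HUMAN or ZN777_HUMAN or any domain named NIZP1. This gave 6 of 100 domains, present in 1163 of the 9983 ordered pairs that had reads (1164 were possible). They are the KRAB domains of ZN473 (gene ZNF473, chromosome 19, 50026005 to 50048776), ZN597 (ZNF597, chromosome 16, 3432414 to 3443504) and ZFP28 (chromosome 19, 56536947 to 56556808), the DUF3669 domain of ZN777 (ZNF777, chromosome 7, 149431363 to 149461062), and the KRAB and C2HR domains of NIZP1 (ZNF496, chromosome 1, 247297415 to 247331867). Coordinates are the whole genes in the RefSeq assembly GRCh38.p14, and the library domains are protein segments of these genes.

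KRAB domains are the repressor modules of a large family of zinc finger proteins. The canonical KRAB domain binds the co-repressor TRIM28, which brings in the histone H3 lysine 9 methyltransferase SETDB1 and HP1 proteins and so builds heterochromatin at the bound site. Some KRAB domains of older zinc finger genes do not bind TRIM28, and a few of them are known to activate transcription. ZNF473, also called ZFP100, acts in the processing of histone pre-mRNA. NIZP1 is named for its interaction with the methyltransferase NSD1, which it contacts through the C2HR motif. DUF3669 is a domain found beside the KRAB box in a few zinc finger proteins.

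Each library member fused an ordered pair of domains to rTetR, a DNA-binding protein that binds its operator only with doxycycline, in K562, an established human line from a chronic myeloid leukaemia. All cells carried a reporter and were selected with blasticidin for 7 days. Activation was read in the reporter line K562 + pDY032 after 2 days of 1000 ng/mL doxycycline, repression in K562 + pJT039 after 5 days, and memory in K562 + pJT039 after 5 days with and 5 days without it. Every screen had a bound and an unbound fraction in 2 separately infected replicates, 12 libraries in all. The sample titles mark the memory screen as unused. All values come from this 1 cell line. The labels name separate infections but no separate cultures before them, so p-values measure the spread between these samples, which may be partly technical. Bound was read as reporter ON, so a higher bound share in activation means more active cells and a lower one in repression means more silenced cells.

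Libraries held from 612999 (activation, unbound, replicate 2) to 55121999 read pairs (activation, bound, replicate 1). The shallowest library had a median of 28 reads per pair, so activation values of replicate 2 rest on few unbound reads. Pairs with the 6 domains took 10.3% to 17.0% of the reads. ZN597 in the second position was thinly covered: next to controls it had 8577 of the domain's 189175 reads in the bound activation library of replicate 1 and 40 of 1409 in the unbound library of replicate 2. All values are the log2 ratio of the bound to the unbound share, set to 0 at the pairs that hold only controls. The library has 21 control domains, which are tiles of dystrophin (DMD) and random sequences. Without DMD tile 31, which was itself at 2.07 in activation and -1.29 in repression, the 20 other controls lay between -0.16 and 0.67 in activation (SD 0.19), -0.26 and 0.29 in repression (SD 0.14), and -0.26 and 0.58 in memory (SD 0.19). Scaling by total counts instead moves every value by -1.07 in activation, 1.83 in repression and 0.50 in memory, so all directions below are relative to the controls.

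The first comparison asked what each domain does alone, from reads summed over its pairs with controls in both positions. ZN473 KRAB had the strongest activation of the 6 domains. It measured 3.43 and 3.19 in the activation replicates, a 9.93-fold higher bound share (log2 3.31, SE 0.16, edgeR quasi-likelihood test with Benjamini-Hochberg adjustment, adjusted p = 1.84e-17), rank 5 of 79 domains. ZN597 KRAB measured 1.63 and 1.92, a 3.42-fold increase (log2 1.77, SE 0.17, edgeR adjusted p = 2.92e-10), rank 7. Both replicates of both domains lay above the whole range of the 20 controls.

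The other KRAB domains barely activated. NIZP1 KRAB measured 0.56 and 0.29 (log2 0.43, SE 0.15, edgeR adjusted p = 0.013) and ZFP28 KRAB 0.51 and 0.15 (0.33, SE 0.15, adjusted p = 0.0483). Both were called, yet both lay inside the range of the controls, and under total-count scaling they were at -0.64 and -0.74. Neither call held without replicate 1 (adjusted p = 0.158 and 0.466) or with random control partners alone (0.0789 and 0.169). NIZP1 C2HR (-0.05 and -0.27) and ZN777 DUF3669 (-0.02 and -0.32) did not pass the test, with adjusted p of 0.348 and 0.308. In all 4 of the 6 domains were called higher and 0 lower in activation, beside 30.4% of the 79 domains called higher and 35.4% lower.

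Canonical KRAB variants served as the reference: the files name 3 of them, M0QYP0, P21506 and Q3KP31. In activation they lay at -1.08, -1.25 and -1.29, ranks 74, 77 and 78. The differences in activation between the KRAB domains that activate and those that do not are given as description, because the contrast was set up on them.

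**Figure D1:**
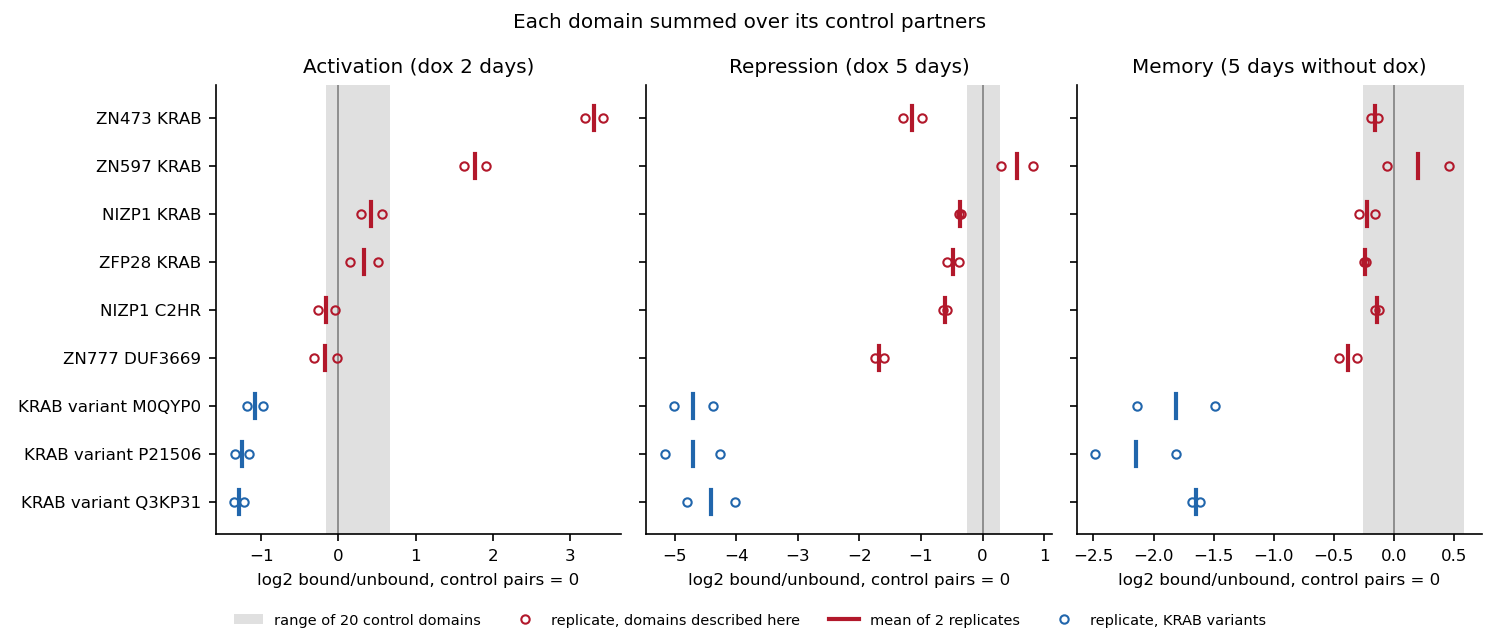
Log2 bound over unbound of each domain summed over its control partners, relative to control pairs (x axis), in the activation, repression and memory screens; open points are the 2 replicates, bars their mean, and the grey band the range of 20 control domains (without DMD tile 31). ZN473 and ZN597 KRAB stand right of the band in activation, and the 3 canonical KRAB variants stand between -4.41 and -4.71 in repression, left of all 6 domains.

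Repression separated the same domains in another order. ZN777 DUF3669 was the strongest silencer of the set, at -1.61 and -1.75 (3.2-fold lower bound share, log2 -1.68, edgeR adjusted p = 1.11e-11, rank 46 from the highest of 79). ZN473 KRAB, the activator, also silenced, at -0.99 and -1.29 (log2 -1.14, adjusted p = 5.55e-08). NIZP1 C2HR (-0.65 and -0.57, adjusted p = 0.000389), ZFP28 KRAB (-0.38 and -0.58, adjusted p = 0.00405) and NIZP1 KRAB (-0.34 and -0.39, adjusted p = 0.025) were weakly lower. ZN597 KRAB was the exception, with 0.82 and 0.29 (log2 0.56, adjusted p = 0.00309), rank 2 from the highest. Its call was lost without replicate 1 (0.29, adjusted p = 0.301).

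Thus 5 of the 6 domains were called lower in repression, beside 70.9% of all 79, and 1 higher, beside 5.06%. Under total counts the 5 lower domains lay above 0, at 0.15 (ZN777) to 1.46 (NIZP1 KRAB). The weakest calls were not stable: NIZP1 KRAB lost its call without either replicate (adjusted p = 0.11 and 0.132) and ZFP28 KRAB without replicate 2 (0.115).

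Differences between domains were tested with limma over all 3081 pairs of domains. In repression 12 of the 15 differences among the 6 domains were called, beside 43.9% of all differences called higher and 37.0% lower. ZN473 lay 1.70 below ZN597 (difference -1.70, SE 0.19, limma adjusted p = 0.000119), so the pair of activating KRAB domains split in this screen. ZN473 also lay above ZN777 by 0.54 (SE 0.14, limma adjusted p = 0.00997). The KRAB domains that barely activated were not told apart: NIZP1 KRAB minus ZFP28 KRAB was 0.11 (SE 0.14, limma adjusted p = 0.484), and the differences of both from NIZP1 C2HR did not pass either (adjusted p = 0.145 and 0.426). All 18 differences from the 3 canonical variants were called, with the variants lower by 2.73 (Q3KP31 against ZN777) to 5.27 (P21506 against ZN597).

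Memory was close to 0 for all 6 domains. ZN777 DUF3669 alone was called, at -0.46 and -0.31 (log2 -0.38, edgeR adjusted p = 0.0381), beside 35.4% of 79 domains called lower and 1.27% higher. That call was lost in 9 of the other settings tried, with each replicate left out among them (adjusted p = 0.519 and 0.168). ZFP28 (-0.24), NIZP1 KRAB (-0.23), ZN473 (-0.16), NIZP1 C2HR (-0.14) and ZN597 (0.20, from 0.45 and -0.06) did not pass the test. The canonical variants were still at -1.82, -2.15 and -1.65, and all 18 differences from them were called (limma, lower by 1.26 to 2.35), beside 11.7% and 16.6% of all differences called higher and lower. None of the 15 differences among the 6 domains was called in memory by limma. Without replicate 1 none of the 18 differences from the variants passed the threshold (0 called by limma, adjusted p of 0.0566 to 0.0622).

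From repression to memory, ZN777 moved up by 1.30 (SE 0.21, edgeR adjusted p = 2.05e-06) and ZN473 by 0.98 (SE 0.21, adjusted p = 0.000142), back towards the controls. NIZP1 C2HR moved up by 0.47 (SE 0.21, adjusted p = 0.0498), a call lost without the replicate block (0.46, adjusted p = 0.0835) and without either replicate (0.186 and 0.159), while ZFP28 (0.23), NIZP1 KRAB (0.14) and ZN597 (-0.36) did not pass. The 3 called of 6 stand beside 60.8% of all 79 domains.

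Of all 79 domains, first against second position was called for 1.27% as lower and 0% as higher in activation, for 0% in repression and for 0% in memory, and none of the 6 was called by limma. The widest gap among them in repression was that of NIZP1 C2HR, at -0.22 and -0.10 in the first position but -0.97 and -1.18 in the second (difference 0.91, SE 0.24, limma adjusted p = 0.11). Its replicates in the 2 positions did not overlap. Used in the first position alone, NIZP1 C2HR was not called as a silencer (-0.16, edgeR adjusted p = 0.409).

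Over shared partners, the scores of ZN473 in the first and the second position correlated with r = 0.93 (96 partners) in activation and 0.811 (94) in repression. For NIZP1 KRAB r was 0.894 (95) and 0.902 (95), and for ZFP28 0.883 (94) and 0.864 (96). ZN777, which has little signal in activation, had r = 0.343 (93) there and 0.748 (96) in repression. Partners share libraries and depth in these correlations, which describe the tables only. Against its 93 partners in repression NIZP1 C2HR scored a median of 0.67 higher in the first position.

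ZN473 activated next to most controls but not all. Scores here are per pair, with a floor of 5 reads. Of its 41 tested pairs with controls 32 were called higher in activation, beside 13.2% of all pairs of a control and another domain, and 7.71% called lower. Next to random control 411 in the first position ZN473 scored 5.28 and 5.56, from 200423 reads in the screen's 4 libraries. Next to random control 89 the same domain scored -0.12 and -0.28, from 29304 reads, and in the second position -0.41 and -0.87. The DMD tile with the second-highest number (0.34 and -0.48 by position) and DMD tile 130 (0.15 and 0.95) gave values near 0 as well, and random control 257 gave 0.58 and 0.47. With random control 89, DMD tile 130 and that DMD tile the 6 pairs had a median of -0.02, from -0.64 to 0.95, and the 35 pairs with other controls a median of 3.77, from 0.47 to 5.42.

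In repression 24 of 41 control pairs of ZN473, 29 of 41 of ZN777, 11 of 40 of NIZP1 C2HR and 8 of 41 each of NIZP1 KRAB and ZFP28 were called lower, and 5 of 29 of ZN597 higher, beside 45.1% lower and 0.884% higher of all such pairs. The same 3 controls, picked after their values were seen, went with weak silencing too. ZN777 in repression had a median of -0.27 (from -0.82 to 0.51) with them and -2.37 (from -3.32 to -0.54) with the others. ZN473 in repression had 0.03 and -1.05, and NIZP1 KRAB 0.27 and -0.55. Canonical variant M0QYP0 had -4.83 and -4.69, so its silencing was as large with these partners. Other activators varied: NCOA2, a nuclear receptor coactivator, fell from 4.07 with the other controls to 0.52, and MYBA, a Myb-family factor, from 4.51 to 3.66. The part of these 3 sequences in the results was not tested. Without them the single-domain values were 3.67 (activation) and -1.36 (repression) for ZN473 and -2.02 (repression) for ZN777, and ZFP28 lost its activation call (0.34, edgeR adjusted p = 0.0656).

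**Figure D2:**
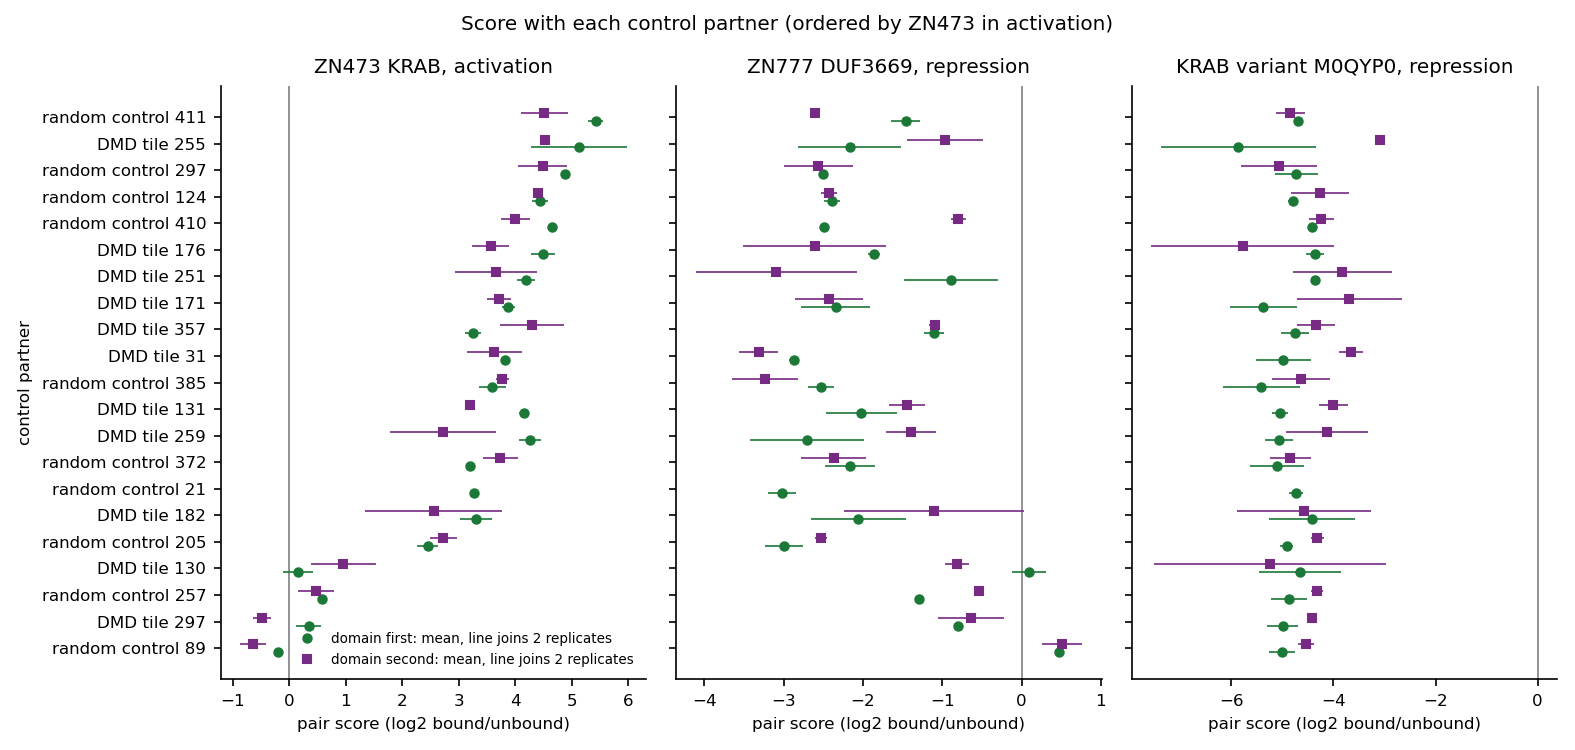
Pair score (log2 bound over unbound, x axis) with each of the 21 control partners (y axis, ordered by ZN473 in activation) for ZN473 in activation, ZN777 in repression and the canonical variant M0QYP0 in repression; circles are the domain first, squares second, and lines join the 2 replicates. ZN473 lies between -0.64 and 0.95 with random control 89, the DMD tile with the second-highest number, random control 257 and DMD tile 130, and the mean of M0QYP0 is at most -3.08 with any control.

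The next comparison asked how each domain behaves with partners that have effects of their own. Partners were sorted by their single-domain effects into 5 activating, 6 dual (activating and silencing), 36 silencing and 32 neither, with a log2 of at least 1 and a call needed for either property. ZN473 is itself dual, ZN597 activating, ZN777 silencing, and NIZP1 KRAB, NIZP1 C2HR and ZFP28 neither. Pairs were also compared with the sum of the median scores that both domains had next to controls in the same positions.

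ZN473 activated with most partners that were not controls. Of 155 such pairs 81 were called higher and 25 lower in activation, beside 16.4% and 11.8% of all pairs without a control. The share of higher pairs was rank 5 of 79 domains. With the activating partners all 10 pairs were higher, with the dual partners all 10, and with neither partners 58 of 64. Over all domains the shares were 39.3%, 53.3% and 21.5%. With silencing partners 2 of 70 were higher and 25 lower, where all domains had 1.02% higher and 15.7% lower.

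With silencing partners ZN473 scored below the controls. Its median score was -0.81 and -0.82 in the replicates, where the sum was 2.83 (deviation -3.79, SE 0.15, limma adjusted p = 2.18e-06). The low score was not particular to ZN473. With this class NIZP1 KRAB was at -0.81, NIZP1 C2HR at -0.78, ZFP28 at -0.74, ZN777 at -0.61 and ZN597 at -0.32. ZN473 had the highest sum of the 6 domains with these partners. By pair 58 of 70 of its pairs fell below the sum, and its deviation was rank 78 of 79 domains with this partner class. Over all domains and classes 30.4% of deviations were called above and 34.8% below the sum in activation, and of single pairs 8.05% and 8.64%. The 2 pairs of ZN473 called higher by edgeR were CREM, a bZIP factor, before it (3.18 and 1.95) and tile 10 of ENSG00000069812 after it (1.40 and 1.01). The tile 10 pair was still called below the sum. Another pair with ZN473 first had a mean score of 3.12 without a call. With the 3 canonical variants all 6 pairs of ZN473 lay between -1.75 and -1.42, and all 6 were called below the sum.

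With dual partners ZN473 scored 4.38 and 4.0, where the sum was 7.51 (deviation -3.43, SE 0.11, limma adjusted p = 1.65e-06). That sum lies beyond the highest score of any pair (6.31). Measured against the stronger of both domains the value was 0.22 (adjusted p = 0.248). With activating partners ZN473 scored 4.03 and 4.27, which did not pass against the sum (deviation -0.31, limma adjusted p = 0.232). The highest pair was ZN473 before the SH3 domain of ANM2, the arginine methyltransferase PRMT2, at 5.41 and 5.75, from 41823 bound and 1363 unbound reads in replicate 1 and 22504 and 16 in replicate 2. MYBA before ZN473 scored 3.08 and 2.65, where the sum was 8.15. Only 2 pairs of ZN473 were called above the sum, both with tile 33 of ENSG00000061273: 5.22 and 4.44 with the tile first, and 4.85 and 4.59 with it second.

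ZN597 also activated with partners that were not controls. Of 112 such pairs 42 were higher and 1 lower in activation, beside 16.4% and 11.8% of all pairs without a control. With neither partners the replicates scored 2.32 and 1.84, where the sum was 0.83 (deviation 0.80, SE 0.15, limma adjusted p = 0.00351), and 26 of 52 pairs were higher. With activating partners it scored 3.43 and 3.63 over 6 pairs (deviation 0.79, adjusted p = 0.00686). With neither partners the median deviation was 0.41 over 32 pairs with ZN597 first and 1.42 over 20 pairs with it second, where pairs had a median of 934 reads. With activating partners it was 0.32 over 4 pairs and 1.64 over 2. The read filter counts both fractions together, so pairs with few unbound reads passed only with enough bound reads. With ZN597 second it kept 20 of 32 neither partners but 9 of 36 silencing ones in activation. The deviations with ZN597 second may thus rest on pairs that passed by a high bound share, which was not tested. With dual partners ZN597 was below the sum (deviation -0.79, limma adjusted p = 0.000773). With silencing partners the scores were -0.40 and -0.24 (deviation -0.84, limma adjusted p = 0.00212), with 2 of 42 pairs higher and 1 lower. Those higher pairs held TERF1, a telomere protein, (2.02 and 3.14) and tile 118 of ENSG00000076108 (1.17 and 1.04). Its largest deviation above the sum was before the WW domain of ITCH, a ubiquitin ligase, at 4.32 and 5.21, where the sum was 1.57 (deviation 3.19, limma adjusted p = 0.0134).

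NIZP1 KRAB and ZFP28 KRAB, nearly inert next to controls, scored above the sum with activating partners and below it with dual partners. With activating partners NIZP1 KRAB scored 2.37 and 1.98, where the sum was 1.30 (deviation 1.13, SE 0.16, limma adjusted p = 0.000911), with 7 of 10 pairs higher. ZFP28 scored 2.71 and 3.15, where the sum was 1.23 (deviation 1.74, SE 0.16, adjusted p = 0.000131), with 8 of 10 higher. Both were higher in 12 of 12 pairs with dual partners, at 3.64 and 3.13 for NIZP1 KRAB and 3.26 and 3.04 for ZFP28. These dual pairs were below the sums of 4.01 and 4.06 (deviations -0.80 and -0.79, limma adjusted p = 0.000657 and 0.00571). Over all domains 39.3% of pairs with activating and 53.3% with dual partners were called higher, and these shares include the 36 silencing domains. NIZP1 C2HR, also of the neither class, was higher in 10 of 12 pairs with dual partners and in 0 of 10 with activating ones. The median deviation of all domains with activating partners was -0.29. Among 76 domains with that class ZFP28 was rank 15 and NIZP1 KRAB rank 23, so other domains deviated farther upward.

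In single pairs the deviations were larger. ZFP28 before the SH3 domain of ANM2 scored 4.95 and 5.48, where the sum was 1.83 (deviation 3.38, SE 0.33, limma adjusted p = 0.00259). ANM2 before NIZP1 KRAB scored 5.00 and 4.17 (sum 0.65), and NIZP1 KRAB before ANM2 4.46 and 5.03 (sum 1.66). The QLQ domain of SMCA2, an ATPase of the SWI/SNF remodelling complex, before NIZP1 KRAB scored 4.71 and 4.78 (deviation 3.18, limma adjusted p = 0.00194). ZFP28 also scored above the sum with partners of the neither class. The Myb-like domain of SMRC2, a SWI/SNF subunit, before ZFP28 scored 4.20 and 3.95, where the sum was 0.30. APC16, a subunit of the anaphase-promoting complex, before ZFP28 scored 3.77 and 3.77, where the sum was 0.28.

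With the neither class as a whole NIZP1 KRAB was called higher in 22 of 62 pairs (deviation 0.39, limma adjusted p = 0.0214) and ZFP28 in 16 of 62 (0.29, adjusted p = 0.0618). Over all partners that were not controls 41 of 154 pairs of NIZP1 KRAB and 36 of 153 pairs of ZFP28 were higher in activation. Of all pairs without a control 16.4% were higher. None of their pairs with silencing partners was called higher by edgeR (0 of 69 and 0 of 68), where the share over all domains was 1.02%. The largest shortfalls of NIZP1 KRAB were with tile 22 of ENSG00000179833, a dual partner, at 2.61 and 2.12 with the tile second and 2.53 and 2.57 with it first, where the sums were 3.94 and 4.06.

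With dual partners all 6 domains were called below the sum in activation, and the median deviation of all domains with that class was -1.71. NIZP1 C2HR with dual partners scored 1.95 and 1.44, where the sum was 3.63 (deviation -1.63, SE 0.16, limma adjusted p = 0.000177, rank 39 of 79), and 10 of 12 pairs stayed higher than controls. Its pairs ranged widely: before MYBA it scored 4.15 and 5.12, and after SMCA2 -1.85 and -0.93. ZN777 with dual partners scored -0.27 and -0.61, where the sum was 3.54 (deviation -3.86, SE 0.14, limma adjusted p = 1.65e-06, rank 63 of 79), with 0 of 12 pairs higher and 11 below the sum. Other domains thus fell farther below the sum with this class. With activating partners ZN777 scored -0.29 and -0.30 (deviation -1.32, adjusted p = 8.1e-05). Over all 153 pairs with partners that were not controls ZN777 had 0 pairs called higher by edgeR and 16 lower.

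**Figure D3:**
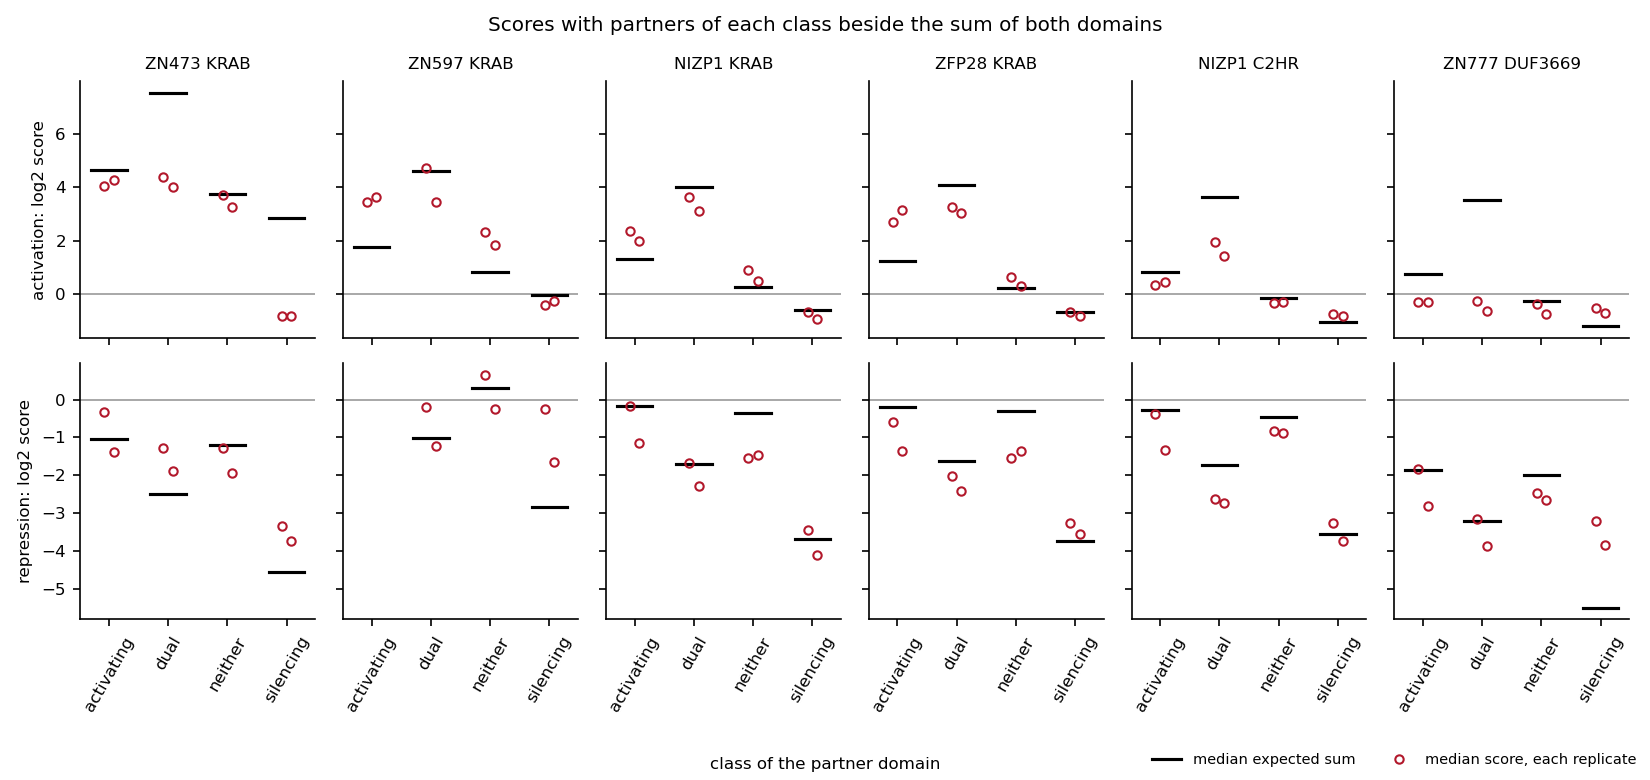
Median pair score in each replicate (open points, log2 bound over unbound, y axis) of the 6 domains with partners of each class (x axis), and the median expected sum of both domains (bar), in activation (top) and repression (bottom). ZN473 with silencing partners lies at -0.81 and -0.82 under a sum of 2.83, and ZN777 with dual partners at -0.27 and -0.61 under a sum of 3.54; ZN597 with activating partners has no value in repression, since only 4 pairs were tested.

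In repression ZN777 had 132 of 155 pairs with partners that were not controls called lower, ZN473 126 of 153, NIZP1 KRAB 116 of 154, ZFP28 116 of 155 and NIZP1 C2HR 100 of 153, beside 66.7% of all such pairs, and 0.340% called higher. ZN597 had 14 of 99 lower and 3 higher, a share of lower pairs of 14.1% that was rank 74 of 79 domains.

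With silencing partners ZN597 scored -0.26 and -1.65, where the sum was -2.83 (deviation 1.74, SE 0.14, limma adjusted p = 8.51e-05). By pair 12 of 41 (29.3%) were lower, and for all domains with silencing partners the share was 79.2%. The median deviation of all domains with that class was also 1.74. Over all domains and classes 39.9% of deviations were called above and 15.8% below the sum in repression, and of single pairs 23.2% and 6.24%. Tile 18 of ENSG00000100307 after ZN597 scored 0.17 and 0.34, where the sum was -2.90, and tile 118 of ENSG00000076108 scored 0.65 and 0.12, where the sum was -2.75. Other pairs were low: the chromodomain of CDYL2 after ZN597 scored -3.65 and -3.79, and canonical variant Q3KP31 -2.74 and -4.21. The replicates of ZN597 in this screen were far apart.

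ZN473 with silencing partners scored -3.33 and -3.73 in repression, where the sum was -4.56 (deviation 0.96, SE 0.15, limma adjusted p = 0.00189), and 59 of 68 pairs were lower. ZN777 with silencing partners scored -3.21 and -3.83, where the sum was -5.49 (deviation 1.77, adjusted p = 4.64e-05). Against the stronger of both domains these 2 deviations turned to -0.12 (adjusted p = 0.492) and -0.13 (adjusted p = 0.376). ZN777 before the SAM domain of SCMH1, a Polycomb protein, was weak, at -0.72 and -0.92, where the sum was -4.82 (deviation 4.0, SE 0.35, limma adjusted p = 0.00339). Farther above the sum was the homeodomain of HXA13 before ZN777, at 0.56 and 2.92, but from only 25 and 12 unbound reads.

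NIZP1 KRAB and ZFP28 KRAB scored below the sum with partners of the neither class. NIZP1 KRAB scored -1.53 and -1.46, where the sum was -0.36 (deviation -1.20, SE 0.12, limma adjusted p = 0.000161), rank 78 of 79 domains, with 28 of 62 pairs below the sum. ZFP28 scored -1.54 and -1.37, where the sum was -0.31 (deviation -0.89, SE 0.11, adjusted p = 0.000647), rank 73. With activating partners ZFP28 was also below the sum (deviation -0.99, limma adjusted p = 0.00216), rank 75 of 75. The median deviation of all domains was -0.06 with the neither class and -0.07 with the activating class.

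The zinc finger of CACO1, a coiled-coil coactivator, before NIZP1 KRAB scored -3.23 and -3.63, where the sum was -0.71 (deviation -2.72, SE 0.28, limma adjusted p = 0.00365). IKKA, the kinase of the NF-kappaB pathway, before ZFP28 scored -3.10 and -3.40, where the sum was -0.33 (deviation -2.92, SE 0.28, adjusted p = 0.0034). For ZN473 the pairs farthest below the sum were with the GATA finger of MTA3, a subunit of the NuRD complex, at -3.02 and -2.94, and with the PHD finger of PYGO1, a Wnt pathway coactivator, at -2.60 and -2.79. For ZN777 it was the WW domain of WWP2, a ubiquitin ligase, before it, at -4.22 and -4.14 (deviation -2.52, limma adjusted p = 0.00801).

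The pairs of NIZP1 C2HR farthest above the sum in repression were with 1 silencing partner. With tile 38 of ENSG00000111642 it scored -0.09 and 0.91 in repression when first, and -0.24 and 0.65 when second. The sums were -3.63 and -4.97 (deviations 4.04, SE 0.41, and 5.18, SE 0.47, limma adjusted p = 0.00353 and 0.00339). The 181 other tested pairs of that tile ran from -6.52 to -0.49 with a median of -4.02, and 173 of them were called lower. The same tile with NIZP1 KRAB scored -3.70 and -4.50 when second, and -4.45 and -4.88 when first. ZN597 before the tile gave -0.23 and -0.77. In activation the tile pairs of NIZP1 C2HR were at 0.35 and 0.22, and 0.45 and 0.36, and in memory no deviation of these pairs was called. Over all silencing partners NIZP1 C2HR scored -3.27 and -3.73 (deviation 0.07, limma adjusted p = 0.629), and 61 of 69 pairs were lower. In all 6 of these pairs, those with tile 38 among them, were called above the sum and 2 below it.

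Pairs of the named domains with each other are given in both orders. ZN473 before ZN777 scored in activation -1.05 and -0.71, where the sum was 3.33 (deviation -4.21, SE 0.30, limma adjusted p = 0.00181), and the reverse order gave -0.33 and -0.67. ZN473 before NIZP1 KRAB scored 3.19 and 2.95, before ZFP28 3.18 and 3.08, and before NIZP1 C2HR 1.19 and 1.04. Before ZN597 it scored 4.05 and 3.49, and ZN597 before ZN473 4.0 and 3.22. ZN597 before NIZP1 KRAB scored 2.63 and 2.87 and before ZFP28 2.40 and 3.75. NIZP1 KRAB and ZFP28 with each other did not pass in activation (0.40 and 0.34 by order), nor did either with NIZP1 C2HR.

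In repression ZN473 before ZN777 scored -3.81 and -4.06. NIZP1 KRAB before ZN777 scored -2.92 and -3.67 (deviation -1.31, limma adjusted p = 0.0286). Both NIZP1 domains together scored -2.50 and -2.36 with KRAB first, where the sum was -1.17 (deviation -1.25, SE 0.26, adjusted p = 0.0196), and -1.12 and -0.92 in the other order, where the deviation did not pass (adjusted p = 0.0796). ZFP28 before ZN473 scored -2.44 and -2.85 (deviation -1.37, adjusted p = 0.026).

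Pairs of a domain with itself are set beside the 20 tested pairs of a control with itself, which had a median of 0.00 (from -0.97 to 0.74) in activation and -0.83 (from -1.46 to 0.33) in repression. ZN473 with itself scored 3.39 and 4.18 in activation and -2.54 and -2.41 in repression. ZN777 with itself scored -3.98 and -3.33 in repression, NIZP1 KRAB -2.41 and -1.63, and ZFP28 -2.52 and -1.85, each with a mean under the lowest mean of these control pairs. NIZP1 C2HR (-2.29 and -1.24) and ZN597 (0.46 and -1.13) did not pass against 0.

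The lists of partner domains were fixed from names, with earlier results of these data known. The transactivation and coactivator domains present, MYBA, FOXO3, NCOA2, CRTC2 and KIBRA, were all of the activating or dual class. Their counts therefore repeat part of the class results. Of 10 pairs of each domain with the list of transactivation and coactivator domains, 10 were called higher in activation for ZN473, 9 for ZFP28, 8 for NIZP1 KRAB, 6 for NIZP1 C2HR and 0 for ZN777, and 7 of 9 for ZN597. For all domains it was 357 of 719. The heterochromatin and SUMO domains present were CBX1, MPP8 and SUMO3, of the silencing class, and CHD3, of the neither class. Counts with them also repeat part of the class results. With this list 7 of 8 pairs were lower in repression for each domain but ZN597 (2 of 4), and 413 of 519 for all domains. With the 3 canonical variants the 34 tested pairs of the 6 domains were all called lower in repression, with medians from -4.91 (ZN777) to -3.44 (ZN597). The variants were called lower next to every tested control as well. For M0QYP0 these were 21 of 21 pairs with it first and 20 of 20 with it second. For P21506 they were 21 of 21 and 19 of 19, and for Q3KP31 20 of 20 and 19 of 19. In activation no pair with a variant was called higher, and the highest scores were those of ZFP28 before P21506 (-0.19) and before M0QYP0 (-0.29). No pair of a variant with a control was called higher there either.

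Profiles over partners were compared, with correlations over shared partners and positions given as description. In activation ZN473 was most like tile 22 of ENSG00000179833 (r = 0.961, 190 points), the transactivation domain of FOXO3 (0.905) and NCOA2 (0.901). In repression it was most like CRTC2 (0.886), a coactivator of CREB. NIZP1 KRAB was most like CACO1 (0.918) in activation and the kinase tail of KS6B2 (0.899) in repression. ZFP28 was most like KS6B2 in both, with r = 0.925 and 0.929, and NIZP1 KRAB and ZFP28 had r = 0.892 with each other in repression. ZN597 was most like SMRC2, with r = 0.798 (142 points) in activation and 0.763 (125) in repression. ZN777 had no close match in activation (highest r = 0.481) and was most like KS6B2 (0.731) in repression. NIZP1 C2HR was most like tile 10 of ENSG00000088305, with r = 0.766 and 0.845.

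Memory held few pair effects. Of 1075 tested pairs of the 6 domains 3 were called higher and 45 lower in memory, beside 0.257% and 6.91% of all pairs, against 8 and 665 of 1074 in repression (0.530% and 56.7% of all) and 261 and 82 of 1089 in activation (14.8% and 9.91% of all). All 45 were among the 840 pairs with partners that were not controls (8.61% of all such pairs lower, 0.225% higher), and of the 235 pairs with controls 0 were lower and 2 higher by edgeR (4.66% and 0.319% of all). Of these 45 lower pairs 21 held a canonical variant, with scores from -2.50 (P21506 before NIZP1 C2HR) to -1.27 (ZFP28 before M0QYP0). The variants were often lower in memory next to controls too. For M0QYP0 it was 20 of 21 control pairs with it first and 12 of 20 with it second. For P21506 it was 15 of 21 and 11 of 19, and for Q3KP31 6 of 21 and 11 of 21. No deviation from the sum was called in memory, by pair or by class (0% of all, limma). Replicates agreed least there: over the pairs of ZN473 their scores correlated with r = 0.307 in memory, 0.943 in activation and 0.833 in repression.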

How the data were processed

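The deposited tables hold raw read-pair counts of each ordered domain pair in 12 libraries, made by the authors from PCR of genomic DNA. Per the submitters' processing notes the tools include Bowtie2 and the genome build is hg38; no version is named there. PCR reads carry no molecular identifiers, so counts overstate independent cells. Bound was read as reporter ON, which the labels do not state. The files name 21 control domains.

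Reads were tested with edgeR 4.0.16 (quasi-likelihood, screen by replicate as block, scaled on control pairs by TMM) and limma 3.58.1 in R 4.3.3, with Benjamini-Hochberg adjusted p at most 0.05. A pair needed at least 5 reads in either fraction and 50 together in each replicate. Pair scores are log2 of the bound over the unbound share, with a floor of 5 reads, relative to the control pairs' median. Single-domain values sum reads over control partners. The expected sum adds both domains' median scores with controls. The tests were tested on simulated data.

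Bound and unbound libraries of a replicate come from the same infected cells, so they are paired by design. Over 8699 pairs their replicate differences correlated weakly, with r = 0.112 in activation, 0.203 in repression and -0.031 in memory. The pairing therefore rests on the design and is not shown by these values. Named pairs are, for each domain in activation and repression, the 2 highest and 2 lowest called pairs with a partner that is not a control and the 2 farthest above and below the sum, where both replicates had 1 sign and all 4 libraries at least 5 reads; pairs among the 6 domains and with canonical variants were named too. Single control partners, silencing partners with higher pairs and other pairs of tile 38 were chosen after their values were seen. The members and lists were chosen with earlier results of these data known. Leaving out 3 control partners was an alternative chosen after seeing the data. Amino acid sequences of the domains were not used here. Not all pairs that the rule for named pairs gives are printed, and 1 is not reported here.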

Additional observations from a re-analysis of the deposited data

Results flagged for a closer look

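For 3 domains the effect in memory differed from that in repression by a test of the difference itself (edgeR quasi-likelihood test with Benjamini-Hochberg adjustment). ZN777 DUF3669 was higher in memory by 1.30 (SE 0.21, adjusted p = 2.05e-06), ZN473 KRAB by 0.98 (SE 0.21, adjusted p = 0.000142) and NIZP1 C2HR by 0.47 (SE 0.21, adjusted p = 0.0498), which did not pass without the replicate block (0.46, adjusted p = 0.0835). Both replicates moved up for each of them.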

How the results depend on the processing

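Of 1775 alternatives for single values 1488 kept direction and side of the threshold, and of 258 alternatives for counts 198 stayed within 1.5 times. The cause of the changes below was not tested. With total counts, single domains called higher and lower were 2 and 4 in activation, 5 and 0 in repression, 4 and 0 in memory, and 0 and 4 for memory minus repression; pairs called lower were 508 in activation, 299 were higher and 301 lower in repression, and 7 and 12 in memory. Signs reversed with total counts for NIZP1 KRAB (-0.64) and ZFP28 (-0.74) in activation, for NIZP1 C2HR (1.22), NIZP1 KRAB (1.46), ZFP28 (1.35), ZN473 (0.69) and ZN777 (0.15) in repression, for NIZP1 C2HR (0.35), NIZP1 KRAB (0.27), ZN473 (0.34) and ZN777 (0.11) in memory, and for memory minus repression of NIZP1 C2HR (-0.86), NIZP1 KRAB (-1.19), ZFP28 (-1.10), ZN473 (-0.35) and ZN777 (-0.034). With TMM over all pairs the single counts were 5 and 0 in repression and 3 and 0 in memory, and pairs 330 and 300 in repression and 11 and 12 in memory; reversed were NIZP1 C2HR (1.31), NIZP1 KRAB (1.55), ZFP28 (1.44), ZN473 (0.78) and ZN777 (0.24) in repression and NIZP1 C2HR (0.41), ZN473 (0.39) and ZN777 (0.17) in memory. Random control partners alone gave 2 domains higher in activation and 0 lower in memory, and DMD tiles alone 0 lower in memory. The first position alone gave 0 lower in memory and 1 called difference among the 6 domains there. The second position alone gave 0 higher and 3 lower in repression, 0 lower in memory, 7 called differences in repression, and NIZP1 C2HR minus ZN473 reversed to -0.083. Means of pair scores gave 0 higher in repression and 0 lower in memory. DESeq2 called 12 pairs higher and 107 lower in memory. Against the stronger of both domains 33 pairs and 1 class deviated upward in repression, and ZN473 with activating (0.44) and dual partners (0.22) and ZN597 with dual partners (0.19) reversed in activation, as did ZN473 with dual (-0.24) and silencing (-0.12) and ZN777 with silencing partners (-0.13) in repression.

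Leaving out a replicate gave 9 to 16 pairs above the sum in activation (46 with both) and 19 to 56 in repression (101), 50 to 62 below it in activation (120) and 18 to 39 in repression (109), and 4 to 6 classes below it in repression (11). Called differences from the variants in memory ranged from 0 to 18. Pairs of the 6 domains called lower were 4 to 11 in activation (82) and 0 to 19 in memory (45), and called higher 0 to 9 in repression (8) and 0 to 6 in memory (3). Single domains called were 2 to 4 higher in activation, 0 to 1 higher and 3 to 4 lower in repression and 0 to 0 lower in memory, and position calls in memory 0 to 1. Without the replicate block, which marks the pairing of fractions, all counts stayed within 1.5 times, and memory minus repression of NIZP1 C2HR lost its call (0.46, SE 0.22, edgeR adjusted p = 0.0835). Depth is low in the unbound activation library of replicate 2 and for ZN597 in the second position.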
